A study of Mus musculus with 16 samples.

Results

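The genes described here code for the proteins of the cytosolic ribosome in mouse aortic valves. They were taken by name: every row of the expression table whose whole name is Rpl or Rps, an optional P, digits and at most 1 closing letter A, X or L, plus Rpsa, with ribosomal S6 kinases and pseudogene rows left out. The rule found 81 of 20992 genes, 49 of the large and 32 of the small ribosomal subunit. All mice had a C57BL/6J background, and RNA came from the aortic valve. HT mice (4) carried transgenes for human renin and human angiotensinogen as a model of hypertension, HC mice (4) were ApoE knockouts as a model of high cholesterol, HC_HT mice (3 of 4 planned) carried both, and CON mice (4) were the controls. The labels give no age. The groups held unequal numbers of females: 2 of 4 HT, 3 of 4 HC, 2 of 3 HC_HT and 1 of 4 CON mice. The labels do not say which promoters drive the transgenes, and the knockout and the transgenes act in the whole animal.

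Ribosomes make all cellular protein, and every ribosomal protein is needed in near equal numbers with the ribosomal RNAs, so the genes are known for being expressed together at high level in growing cells. Their messenger RNAs begin with a terminal oligopyrimidine (TOP) tract, a C followed by a run of C or T, through which the mTOR pathway and its effector Larp1 control their translation and stability. Some of the proteins have known roles apart from the ribosome, such as Rpl5 and Rpl11, which bind Mdm2 and so stabilise p53. Ribosome production also needs ribosomal RNA and assembly factors made in the nucleolus.

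The start regions of 6 of the genes named below are shown as examples, with or without the tract by which this family is known. The 6 do not measure how common the tract is, and shares over all members with an entry follow. Each runs from 40 bases before to 20 bases from the annotated start, 5′ to 3′ on the gene's strand, in the RefSeq annotation of GRCm38.p6 (the files use mm10, the same assembly). Capitals mark the longest run made of a C and at least 4 more C or T.
Rpl4 (chr9:64173347-64173406, plus strand): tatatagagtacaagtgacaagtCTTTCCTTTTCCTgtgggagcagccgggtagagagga
Rpl5 (chr5:107900488-107900547, plus strand): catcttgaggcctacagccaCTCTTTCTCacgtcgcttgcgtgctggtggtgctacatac
Rps6 (chr4:86857348-86857407, minus strand): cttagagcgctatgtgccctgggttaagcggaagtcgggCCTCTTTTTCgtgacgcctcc
Rps27 (chr3:90213629-90213688, minus strand): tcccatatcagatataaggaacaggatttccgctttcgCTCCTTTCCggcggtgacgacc
Rplp2 (chr7:141447611-141447670, plus strand): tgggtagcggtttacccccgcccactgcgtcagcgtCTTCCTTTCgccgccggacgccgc
Rpsa (chr9:120127726-120127785, plus strand): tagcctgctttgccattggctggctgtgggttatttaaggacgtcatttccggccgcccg
In Rps6, Rps27 and Rplp2 the tract crosses the annotated start, beginning 1, 2 and 4 bases before it. In Rpl4 and Rpl5 it lies upstream of the RefSeq start, beginning 17 and 20 bases before it, and Rpsa has none in this window. The place of the tract depends on the annotation. GENCODE M21 begins the Rpl4 gene at 64173375, within the tract, and the Rpl5 gene at 107900502, before the tract. Of the 60 members with an entry in the RefSeq table, 13 (21.7%) had at the start itself a C followed by 4 or more C or T on the gene's strand, against 3.01% of all 27025 genes. Within 30 bases either side of the start, 37 (61.7%) had a C followed by 6 or more C or T, against 29.7% of all genes. The motif CCGGAAGT (ETS family), searched on both strands in 300 bases, stood in 12 (20.0%), against 4.31% of all genes. GGGCGGGG (SP1) stood in 16 (26.7%, against 19.6%), CACGTG (E-box) in 6 (10.0%, against 8.09%), TATAAA in 6 (10.0%, against 15.7%) and the YY1 motif in 2 (3.33%, against 0.995%). A match is a description of these letters and not evidence of binding, and the motifs can overlap the tract windows.

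Values are the authors' normalised counts, multiplied here by 1 factor so that the median library totals 1000000 (in units). Each library's deposited total is nearly the same, so the values do not carry sequencing depth, and no counting interval is given. The values of low genes fall on steps that would make 1 read worth about 1.58 to 2.41 of the deposited values, so a library's depth can be estimated only roughly. 4 rows, among them the 45S ribosomal RNA precursor RN45S, held 32.4% to 62.7% of each library, and RN45S alone held 0.769% to 12.8%. Since a large row pushes all others down, the main results are also given on a median-of-ratios scale, which divides each library by a factor taken over 13487 genes (0.636 to 1.34). Markers of valve interstitial cells and fibroblasts were present in every library (summed levels 4657 to 16455 units), and so were endothelial markers (548 to 1199 units). Cardiomyocyte markers summed to 177 to 12162 units and erythroid markers to 7.25 to 12171 units across the libraries. In whole tissue, fewer cells of a type and less RNA per cell cannot be told apart.

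Summed over the 81 genes, ribosomal protein messenger RNA took up an unequal part of the libraries within every group. The sum was 16829, 9907, 3056 and 5200 units in the 4 HT libraries. It was 23264, 21063, 19076 and 7920 units in the 4 HC libraries, and 13560, 15425 and 6967 units in the 3 HC_HT libraries. It was 19729, 22570, 10257 and 5959 units in the 4 CON libraries. The lowest and the highest library, HT replicate 3 and HC replicate 1, lay 7.61-fold apart, and the groups overlapped. The mean ± SD was 8748 ± 6100 units in HT (n = 4), 17831 ± 6825 in HC (n = 4), 11984 ± 4444 in HC_HT (n = 3) and 14629 ± 7818 in CON (n = 4). The SD within a group was close in size to the differences between group means. With the 4 rows left out of the total, the share of the genes was 1.86 ± 1.10% in HT, 2.96 ± 0.872% in HC, 2.43 ± 0.880% in HC_HT and 2.39 ± 0.983% in CON. On the median-of-ratios scale the sums were 10206 ± 6101 in HT, 15024 ± 4153 in HC, 12006 ± 4499 in HC_HT and 11955 ± 4635 units in CON, with the extremes 3.95-fold apart.

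**Figure D1:**
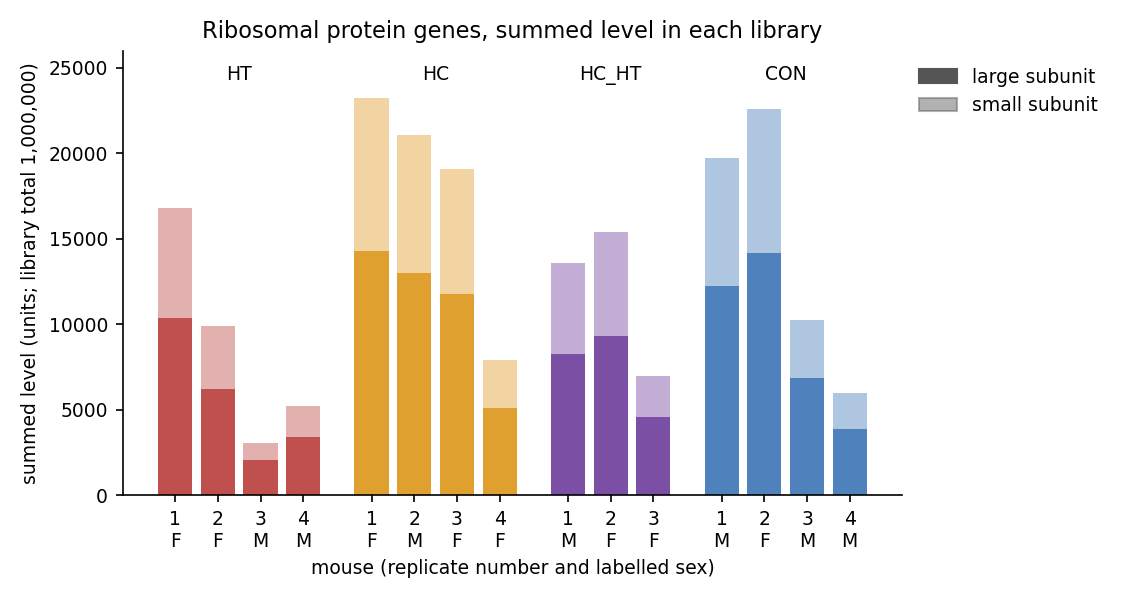
Summed level in units of the 81 ribosomal protein genes in each of the 15 libraries (bars, starting at 0), divided into large and small subunit genes and labelled with replicate number and sex. The sum ranged from 3056 units in HT replicate 3 to 23264 units in HC replicate 1, and the lowest library was 7920 units in HC, 6967 in HC_HT and 5959 in CON.

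The 2 subunits kept a narrower balance than the total. The ratio of the large-subunit to the small-subunit sum lay between 1.54 (HC_HT replicate 2) and 2.04 (CON replicate 3). It was 1.80 to 2.04 in HC replicate 4, HC_HT replicate 3 and replicates 3 and 4 of HT and of CON. In the other libraries it was 1.54 to 1.69. The libraries with the higher ratios were also those with the lowest mean log2 level of the genes.

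Each library carries in its description a running number whose meaning the labels do not give. All HC and HC_HT libraries have numbers from 1 to 7, and all CON and HT libraries numbers from 9 to 17. Differences of HC or HC_HT from CON or HT therefore cannot be told apart from a difference by number. The 6 libraries with the lowest mean log2 level of the genes (4.97 to 6.66) bear the numbers 6, 7, 14, 15, 16 and 17, in order HC replicate 4, HC_HT replicate 3, HT replicate 3, CON replicate 3, CON replicate 4 and HT replicate 4. The other 9 libraries (numbers 1 to 5, 9, 10, 11 and 13) had means of 6.75 to 8.01. This division was seen after the levels were known, and the part of the numbering in the levels was not tested. Within the numbers 14 to 17 the sums were 3056 and 5200 units in HT and 10257 and 5959 units in CON, and on the median-of-ratios scale 4554 and 5305 units in HT and 8540 and 7485 units in CON. Within 9 to 13 they were 16829 and 9907 units in HT and 19729 and 22570 units in CON, and on the median-of-ratios scale 15399 and 15567 units in HT and 14970 and 16826 units in CON. HT lay below CON within 14 to 17 on both scales, and within 9 to 13 on the deposited scale. On the median-of-ratios scale HT and CON overlapped within 9 to 13.

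Gene by gene, the 78 members that passed a low-value filter (at least 1 unit in at least 4 libraries) moved across libraries almost as one. The median SD of their log2 level over the 15 libraries was 0.95, and it was 0.24 once each library's mean over the members was taken off. That mean carried 90.3% of the members' variance, while group means carried 25.7%. Other genes at or above the lowest member's level (11199) had a median SD of 0.53. Of the 78, 74 were lowest in HT replicate 3, 3 in HT replicate 4 and 1 in CON replicate 4. By contrast, 44 were highest in HC replicate 1, 21 in CON replicate 2, 8 in HC replicate 3, 4 in HC replicate 2 and 1 in CON replicate 1.

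**Figure D2:**
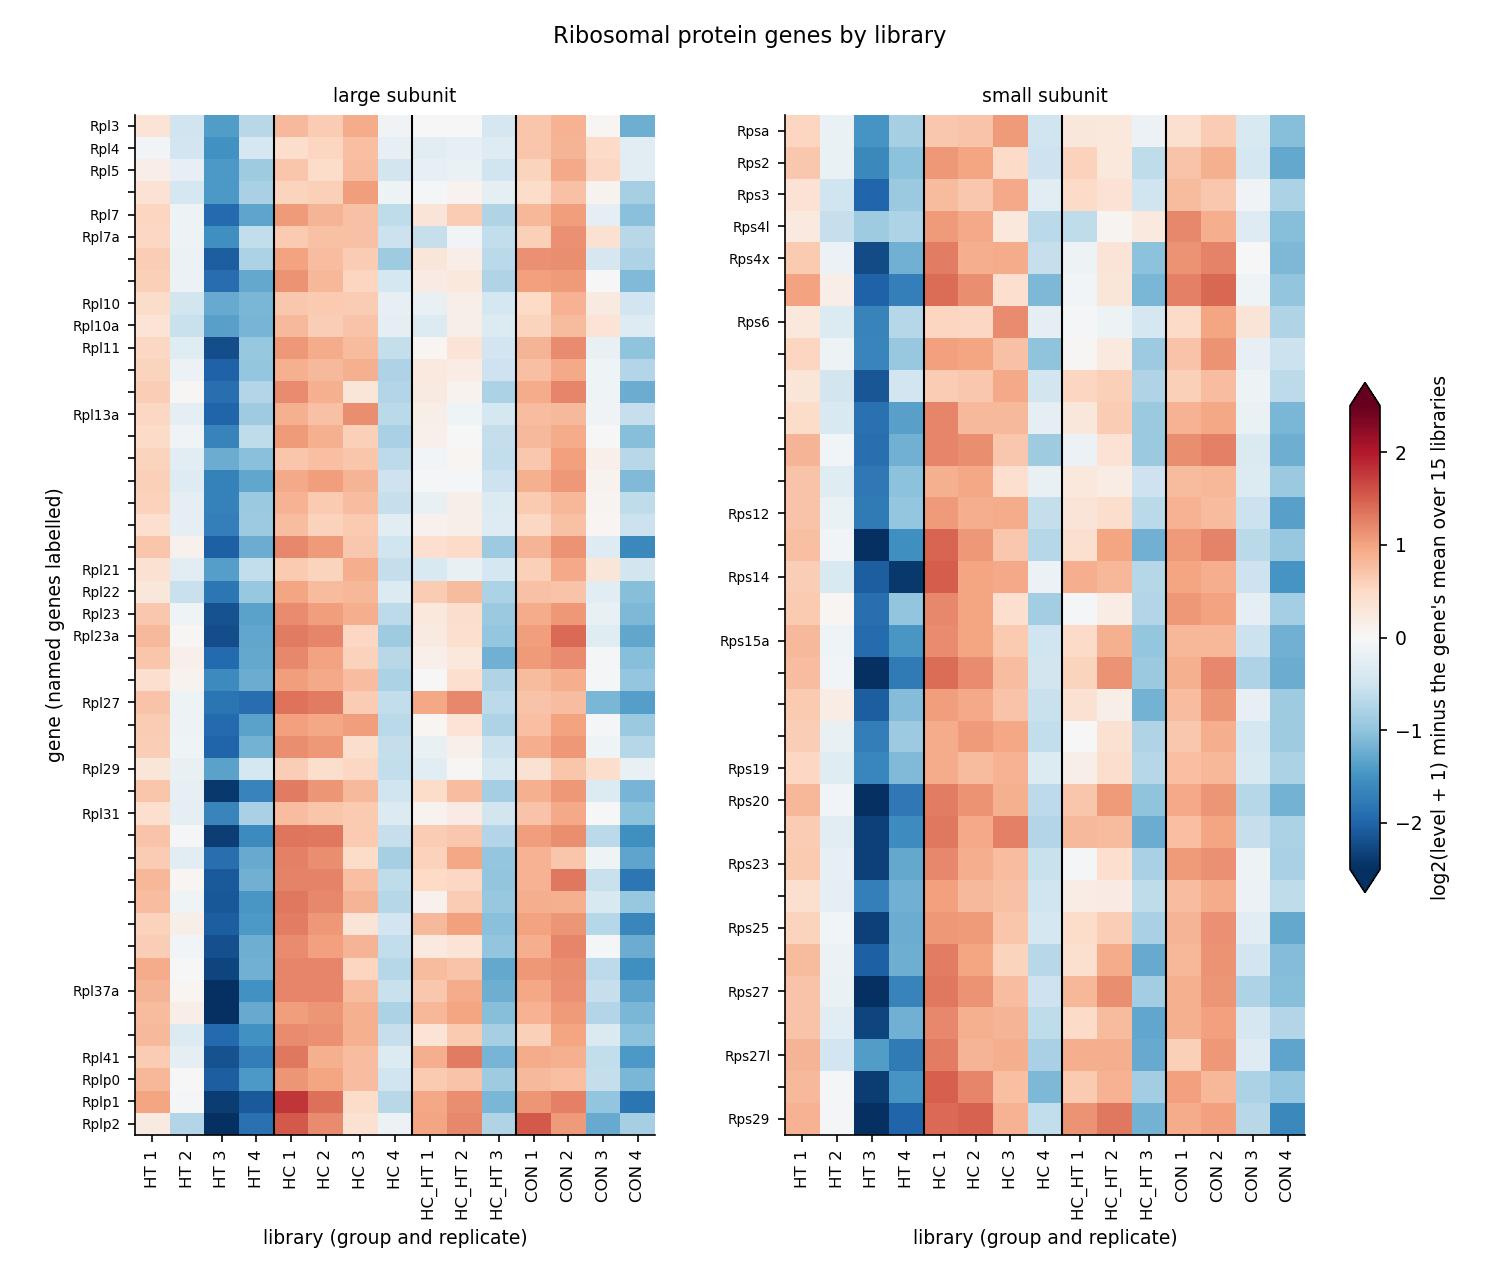
Log2(level + 1) of each of the 78 tested ribosomal protein genes (rows; large subunit left, small subunit right) in each library (columns), minus the gene's mean over 15 libraries; rows are labelled for genes the text names. Whole columns share a colour: HT replicate 3 is lowest in 74 genes, and HC replicate 1 is highest in 44.

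Highest and lowest libraries differed by 4.13-fold (Rpl29) to 21.1-fold (Rps29), with a median of 9.12-fold. Rps29, a small-subunit protein, had 249, 131, 18.0 and 33.4 units in HT, 363, 379, 248 and 88.6 in HC, 296, 342 and 59.5 in HC_HT, and 259, 277, 83.8 and 43.9 in CON. Rpl29, by contrast, had 148, 106, 46.8 and 88.6 units in HT, 185, 163, 172 and 78.1 in HC, 99.2, 123 and 90.4 in HC_HT, and 157, 193, 162 and 105 in CON. HT replicate 3 was the lowest of the 15 libraries for both genes. The gene that followed the members' mean most closely was Rpl7 (relative SD 0.068), and Rpl23 followed at 0.12. The least close were Rplp2 (0.56), Rplp1 (0.55) and Rpl4 (0.54).

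Levels were compared between genes per 1000 bases of transcript (GENCODE M21), for the 77 tested members with a length. Rps27, a small-subunit protein, was highest with a mean of 777 units per 1000 bases over the 15 libraries, followed by Rpl41 (740), whose product is the smallest ribosomal protein, and Rpl10 (609). Next came Rpl31 (519), Rps29 (491), Rplp1 (455), Rpl23a (455), Rps25 (405), Rpl37a (375) and Rpl10a (370). The median was 182 and the lowest values were Rps15a (23.4), Rplp2 (44.4), Rps20 (46.4), Rps27l (50.9) and Rpl22 (54.2). The value of Rps15a rests on an annotated transcript of 5130 bases, and its level without scaling to length was 120 units. Those of Rps20 and Rpl22 rest on 3706 and 2048 bases, and their levels without scaling were 172 and 111 units. Their low values therefore depend on the annotated length. The highest and lowest values per length lay 33.2-fold apart, with Rps15a as the lowest. The 3 members that did not pass the filter are paralogs with a known restricted expression: Rpl3l, of heart and skeletal muscle, reached 1.08 units, Rpl39l, of testis, 0.588 units, and Rpl10l, of testis, 0.196 units. Another paralog, Rps4l, averaged 4.23 units, while its X-linked counterpart Rps4x averaged 325 units. Named pseudogenes exist for 59 of the 81 genes (up to 24, for Rpl31), and how the authors' counting divided reads between a gene and its copies is not stated in the labels.

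In the large subunit, Rpl4, which lines the tunnel through which new protein leaves, had 313, 235, 113 and 243 units in HT, 444, 473, 554 and 282 in HC, 270, 282 and 262 in HC_HT, and 526, 592, 453 and 267 in CON. Rpl5, which carries the 5S ribosomal RNA into the large subunit, had 265, 204, 86.3 and 126 units in HT, 382, 322, 399 and 170 in HC, 204, 210 and 166 in HC_HT, and 346, 455, 338 and 194 in CON. Of the 4 HT libraries, 3 had less Rpl4 and 2 had less Rpl5 than the lowest CON library, and the groups overlapped. Rpl11, the partner of Rpl5, had 261, 147, 38.5 and 93.0 units in HT, 385, 347, 314 and 119 in HC, 187, 231 and 129 in HC_HT, and 328, 411, 159 and 90.0 in CON.

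The stalk proteins Rplp0, Rplp1 and Rplp2 recruit the translation elongation factors. Rplp2 had 36.6, 18.2, 4.51 and 7.84 units in HT, 91.8, 71.8, 41.0 and 28.2 in HC, 62.9, 73.0 and 18.1 in HC_HT, and 91.6, 66.2, 12.4 and 17.1 in CON. Rplp0 had 247, 139, 32.3 and 51.0 units in HT, 298, 277, 237 and 97.5 in HC, 218, 229 and 74.2 in HC_HT, and 246, 236, 91.8 and 62.6 in CON. Both were lower in replicates 3 and 4 than in replicates 1 and 2 of HT and of CON, and HT and CON overlapped. Rpl10, needed late in assembly for joining the subunits, had 612, 325, 184 and 201 units in HT, 709, 696, 692 and 387 in HC, 393, 491 and 326 in HC_HT, and 631, 815, 519 and 319 in CON. Rpl10a, part of the stalk on the other side of the subunit, had 310, 166, 94.7 and 110 units in HT, 433, 377, 400 and 207 in HC, 194, 273 and 192 in HC_HT, and 360, 424, 311 and 197 in CON. HT replicates 2, 3 and 4 had less Rpl10a than every CON library, while HT replicate 1 lay within the CON range. For Rpl10, HT replicates 3 and 4 lay below the CON range.

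In the small subunit, Rps6, the substrate of the S6 kinases, had 320, 209, 82.9 and 162 units in HT, 384, 382, 602 and 227 in HC, 262, 243 and 195 in HC_HT, and 368, 530, 334 and 157 in CON. Rps27 had 334, 182, 27.4 and 63.1 units in HT, 508, 446, 351 and 142 in HC, 361, 460 and 112 in HC_HT, and 378, 439, 120 and 96.8 in CON. Rpsa, also known as a laminin receptor, had 434, 264, 106 and 167 units in HT, 472, 489, 624 and 211 in HC, 362, 356 and 269 in HC_HT, and 391, 459, 229 and 141 in CON. In all 3 genes HT replicate 3 was the lowest of the 15 libraries, and the HT and CON ranges overlapped. Rps14 had 106, 52.7, 15.8 and 12.1 units in HT, 198, 138, 134 and 61.9 in HC, 129, 123 and 41.3 in HC_HT, and 136, 129, 47.4 and 24.2 in CON. Rps19, mutated in the human anaemia Diamond-Blackfan, had 107, 60.1, 23.3 and 33.9 units in HT, 143, 129, 137 and 58.3 in HC, 82.8, 101 and 44.7 in HC_HT, and 125, 133, 57.2 and 42.3 in CON. The lowest library was HT replicate 4 for Rps14 and HT replicate 3 for Rps19.

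Differences between groups were fitted with limma on log2(level + 1), with group and sex as terms, over 15004 genes that passed the filter. A gene was called at a Benjamini-Hochberg adjusted p under 0.05 over those genes, two-sided. The first comparison set HT valves against CON valves.

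No ribosomal protein gene was called between HT and CON (0 of 78), and none of the 15004 genes was called either, a background of 0%. All 78 had a negative difference (HT minus CON), where 86.7% of all genes were also negative, and the members' median was -0.995 against -0.417 for all genes. The members' mean in each library carried 90.3% of their variance. In every comparison and on either scale, the members counted are therefore not separate observations. At an unadjusted p under 0.05, 18 of 78 were lower in HT and 0 higher, against backgrounds of 12.6% lower and 0.187% higher. Differences spanned -1.51 (Rplp2) to -0.51 (Rpsa), and the large-subunit genes (median -0.995) and small-subunit genes (-0.987) lay close together. Of the 18 genes, 14 were of the large and 4 of the small subunit. They included Rpl4, Rpl5, Rpl7a, Rpl10, Rpl10a, Rpl13a, Rpl21, Rpl29, Rpl31, Rps3, Rps6 and Rps23.

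The smallest p among the members belonged to Rpl10a, whose difference HT minus CON was -1.15 ± 0.34 (log2, SE; limma, adjusted p = 0.351). Rpl4 differed by -1.13 ± 0.34 and Rpl5 by -1.14 ± 0.35, both with the same adjusted p. Rpl10 differed by -1.01 ± 0.36 (adjusted p = 0.351) and Rps6 by -1.005 ± 0.38 (adjusted p = 0.359). Genes with larger differences had larger errors, for example Rplp2 at -1.51 ± 0.78 (adjusted p = 0.406) and Rps27 at -1.25 ± 0.80 (adjusted p = 0.452). No member's HT and CON libraries were apart on the deposited scale, against 4.15% of all genes with HT lower throughout.

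On the median-of-ratios scale all 78 were again negative, where 51.2% of all genes were, and the median was -0.52 against -0.01 for all genes. Of the 78, 4 were at an unadjusted p under 0.05, against 2.48% of all genes; Rpl4 differed by -0.65 ± 0.21 and Rpl10a by -0.68 ± 0.24, and Rpsa by -0.04 ± 0.30. The number of members lower at an unadjusted p under 0.05 on the deposited scale, 18, varied with the libraries and the fit, and so did the share of all genes. Without 1 CON library it was 7 (replicate 1, 7.07% of all genes), 4 (replicate 2, 5.33%) or 38 (replicate 4, 24.2%). Without 1 HT library it was 36 (replicate 1, 20.8%), 4 (replicate 3, 3.41%) or 9 (replicate 4, 16.3%). Libraries of other groups share the fit, and it was 30 without HC replicate 2 (12.5%), 31 without HC replicate 4 (15.3%) and 30 without HC_HT replicate 3 (13.2%). Without the 3 libraries that correlate least with the others (HT replicates 2 and 3 and HC_HT replicate 2) it was 1 of 78, or 1.28%, beside 1.16% of all genes. With no sex term it was 8 of 78 (10.3%), under the 12.5% of all genes. With array weights it was 54 (32.9% of all genes), and with only the HT and CON libraries in the fit 76 (16.2%).

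**Figure D3:**
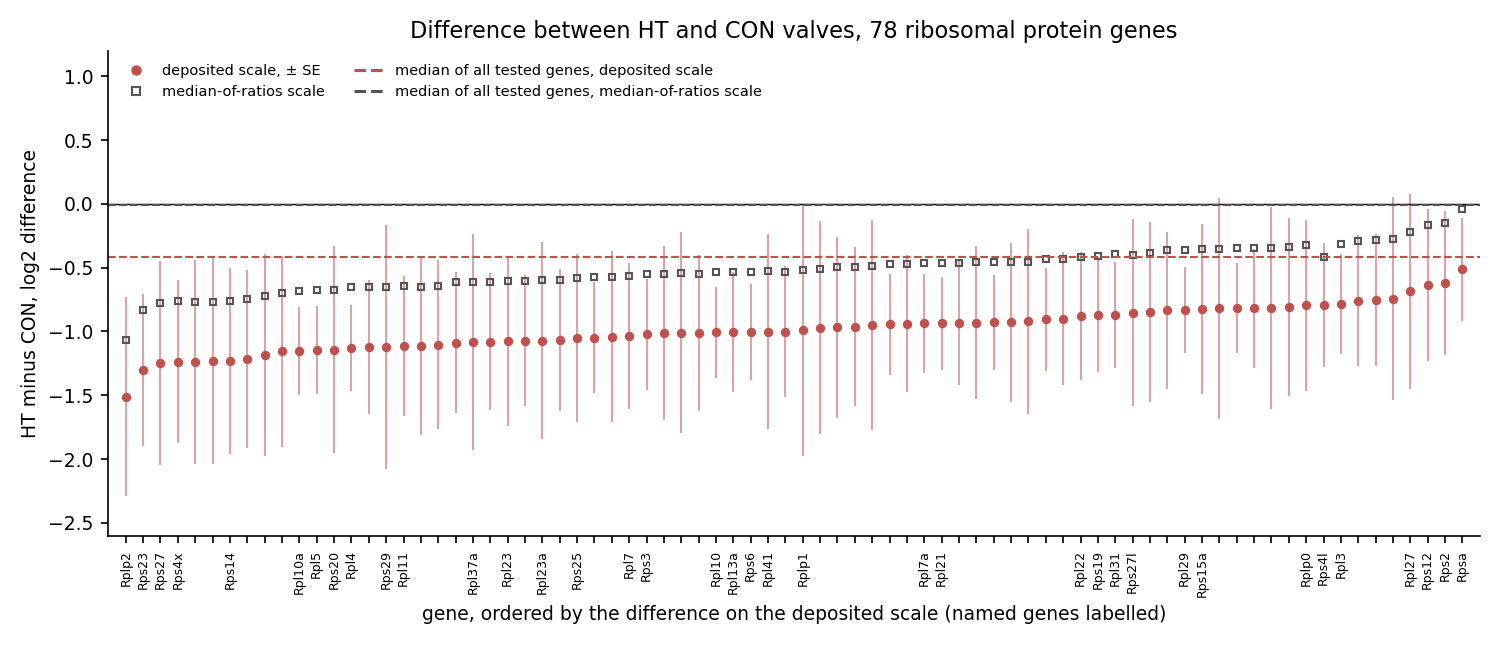
Fitted log2 difference, HT minus CON, of 78 ribosomal protein genes (points with ± SE on the deposited scale, squares on the median-of-ratios scale), with dashed lines at the median of all tested genes; genes the text names are labelled. The points run from -1.51 (Rplp2) to -0.51 (Rpsa), all below 0, against a median of -0.42 over all genes on the deposited scale; the squares have a median of -0.52, against -0.01.

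Of the markers of other cells none was called between HT and CON, where 86.7% of all genes were negative and 12.6% lower at an unadjusted p under 0.05. Macrophage markers were negative in 10 of 10 tested genes (median -1.08, or -0.63 on the median-of-ratios scale, 6 at unadjusted p under 0.05), with sums of 158 to 1411 units in HT and 874 to 1419 units in CON. Erythroid markers were negative in 5 of 5 (median -2.91, or -2.49), with sums of 7.25 to 394 units in HT and 175 to 5657 units in CON. Valve interstitial and fibroblast markers were negative in 9 of 9 (median -0.65, or -0.18), with sums of 4657 to 13068 units in HT and 6716 to 16455 units in CON. Lymphocyte (6 of 6 negative, median -0.91, or -0.74) and melanocyte markers (6 of 6, -0.89, or -0.51) were negative throughout. Cardiomyocyte (8 of 12 negative, -0.21, or 0.23), endothelial (6 of 8, -0.28, or 0.19) and skeletal muscle markers (1 of 2, -0.33, or 0.04) had medians above that of all genes, -0.42. Smooth muscle (7 of 8, -0.43, or 0.01) and adipocyte markers (2 of 3, -0.58, or -0.29) had medians below it on the deposited scale. No marker in these lists was at 0 in all libraries, and their part in the members' difference was not tested.

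In the HC valves, no member was called against CON, where 0.167% of all genes were. No member reached an unadjusted p under 0.05 (backgrounds 1.45% lower, 2.56% higher), and 25 of 78 had a negative difference, against 52.7% of all genes. The median difference, HC minus CON, was 0.10 against -0.02 for all genes, and Rpl27 was the highest. Rpl27, a large-subunit protein, had 184, 175, 110 and 45.8 units in HC, against 118, 121, 31.4 and 26.7 in CON, a difference of 0.60 ± 0.80 (limma, adjusted p = 1.00). The errors exceeded the differences in every member named here; Rpl5, for instance, differed by -0.31 ± 0.37. The direction of the median depended on single libraries, being -0.47 without HC replicate 2, with 78 of 78 negative, -0.18 without CON replicate 4 and -0.05 without HC_HT replicate 1.

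In HC_HT valves against CON valves, no member was called, where 0.467% of all genes were. Of 78, 4 (5.13%) were lower at an unadjusted p under 0.05, a smaller share than the 8.40% of all genes. No member was higher, against 2.99% of all genes. The 4 were Rpl5 at -0.92 ± 0.38 (limma, adjusted p = 0.352), Rpl7a at -1.02 ± 0.43, Rpl4 at -0.83 ± 0.37 and Rpl21 at -0.88 ± 0.40. All 4 are large-subunit genes, and 69 of 78 members were negative, against 66.8% of all genes, with a median of -0.44 against -0.20. Rpl7a had 116, 165 and 114 units in HC_HT, against 262, 385, 227 and 106 in CON. Its lowest CON library lay below all HC_HT libraries, so the groups overlapped. On the median-of-ratios scale, Rpl4 (240 to 301 units in HC_HT, 336 to 441 in CON) and Rpl5 (178 to 225 in HC_HT, 244 to 340 in CON) did not overlap. These were 2 of 78 members (2.56%), fewer than the 6.44% of all genes that did not overlap in that direction. On that scale the members' median was -0.23, with 56 of 78 negative (51.5% of all genes). On the deposited scale 9 of 78 were not negative, with Rpl27 highest at 0.49 ± 0.84. The count of 4 at an unadjusted p under 0.05 was 0 with no sex term (8.95% of all genes), without CON replicate 2 (4.10%) and without HC_HT replicate 3 (8.08%). It was 1 without CON replicate 1 (6.04%), 2 without CON replicate 3 (6.09%), 2 without HC_HT replicate 2 (4.95%), 10 without CON replicate 4 (13.0%) and 12 with array weights (19.3%).

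HC_HT valves against HC valves, the effect of adding the transgenes in ApoE knockouts, had no called member, and no gene was called (0%). All 78 members were negative (69.4% of all genes), with a median of -0.52 against -0.18, and none reached an unadjusted p under 0.05 (backgrounds 3.71% lower, 0.693% higher). Without HC replicate 4 that number was 23 of 78 lower (29.5%, against 9.00% of all genes), with array weights 14 (9.59%) and with only the groups compared 9 (5.94%). Rpl7a had the smallest p, at -0.77 ± 0.41 (adjusted p = 0.984). On the median-of-ratios scale 77 were negative (51.8% of all genes), with a median of -0.33. On it, Rpl4 (240 to 301 in HC_HT, 321 to 450 in HC) and Rpl3 (131 to 172.9 in HC_HT, 173.3 to 251 in HC), a protein near the peptidyl transferase centre, did not overlap. The Rpl3 ranges almost touched. These were 2 of 78 members (2.56%), fewer than the 3.35% of all genes.

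HC_HT valves against HT valves, which differ by the knockout and also by the range of running numbers, had no called member. Of all genes, 0.373% were called. Of 78, 77 were positive (30.5% of all genes were negative), with a median of 0.50 against 0.21, and none reached an unadjusted p under 0.05 (backgrounds 1.39% lower, 7.32% higher). Rplp2 had the smallest p, at 1.61 ± 0.83 (adjusted p = 0.632). Without HC_HT replicate 3, 11 members were higher at an unadjusted p under 0.05 (10.4% of all genes), without HT replicate 1, 4 (12.6%), and with only the groups compared 12 (6.88%). Without the 3 least correlated libraries the median was 0.03, with 33 of 78 negative.

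Averaged over the ApoE states, the HT difference had no called member either, where 0.0133% of all genes were called. At an unadjusted p under 0.05, 23 of 78 were lower, and 0 higher, against backgrounds of 16.0% and 0.633%, and all 78 were negative (84.0% of all genes), with a median of -0.73 against -0.30. Rpl4 differed by -0.87 ± 0.24 (adjusted p = 0.117), Rpl10a by -0.88 ± 0.25 (adjusted p = 0.117) and Rpl5 by -0.88 ± 0.25 (adjusted p = 0.125). On the median-of-ratios scale, 8 were lower at an unadjusted p under 0.05 (4.92% of all genes) and all 78 negative (51.7%), with a median of -0.40. The count of 23 was 15 without CON replicate 1 (11.8% of all genes), 13 without CON replicate 2 (9.98%), 37 without CON replicate 4 (25% of all genes), 11 without HT replicate 3 (8.88%) and 14 without HT replicate 4 (18.3%). It was 15 without HC replicate 1 (11.5%), 53 without HC replicate 4 (23.9%), 39 without HC_HT replicate 1 (19.1%) and 10 without HC_HT replicate 3, which is 12.8% of members and 12.8% of all genes. It was 5 without the 3 least correlated libraries (4.28%), 58 with array weights (34.2%) and 15 of 77 with the length trend removed (5.65%). The HC difference averaged over the transgene states had no called member (1.47% of all genes) and none at an unadjusted p under 0.05 (backgrounds 2.53% lower, 7.31% higher), with 5 of 78 negative (38.2% of all genes) and a median of 0.33 against 0.09. The interaction of transgenes and knockout had no called member and no called gene (0%), and no member at an unadjusted p under 0.05 (backgrounds 0.233% lower, 1.15% higher). Its members' median was 0.46 against 0.23, with none negative (28.2% of all genes), and -0.17 without the 3 libraries. CON, HT and HC libraries enter several of these comparisons, so their values are not independent of each other.

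Relative to the members' own mean in each library, no member was called in HT against CON (0% of all genes) or in HC_HT against CON (0.0733% of all genes). Between HT and CON valves, the lowest on this relative scale were Rplp2 (-0.53), Rps23 (-0.32), Rps27 (-0.27) and Rps4x (-0.26), and the highest were Rpsa (0.47), Rps2 (0.36), Rps12 (0.34) and Rpl27 (0.30). Between HC_HT and CON valves, Rpl7a (-0.62), Rpl5 (-0.52) and Rps4x (-0.51) were toward the low end and Rpl27 (0.89), Rps29 (0.58), Rpl41 (0.51) and Rplp2 (0.50) were the highest. Rps4x lay low and Rpl27 high in both.

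The spread of the members differed with transcript length. Tested members had a median of 774 bases, against 2944 bases for other genes. Members under 600 bases had a median SD of 1.13 over the libraries, and those from 1200 to under 2000 bases 0.74. Other genes had 0.84 under 600 bases and 0.60 from 1200 to under 2000 bases. Over 77 members, which share libraries and normalisation, the Spearman correlation of SD with length was -0.46, and with mean level -0.35. In each library the slope of the log2 deviation on log2 length was fitted for members and for other genes. In the 6 libraries lowest in mean level it was 0.088 to 0.15 for members and 0.065 to 0.19 for other genes. In the other 9 it was -0.16 to 0.035 for members and -0.16 to -0.021 for other genes, so short transcripts were low in the 6 libraries in both gene groups. Between HT and CON, members under 600 bases had a median difference of -1.01 with a median SE of 0.74, and 0 of 24 were lower at an unadjusted p under 0.05, where 12.6% of all genes of any length were. Those of 800 bases or more had a median of -1.001 with a median SE of 0.52, and 13 of 35 were. Removing the length trend of all other genes from each library left 77 of 77 negative, with a median of -0.43 and 10 at an unadjusted p under 0.05. The removal also moved all genes, to 3.41% lower and 2.28% higher, from 12.6% and 0.187% on the deposited scale. The median of -0.43 therefore does not compare with the deposited-scale medians. On the median-of-ratios scale, with 2.48% of all genes lower, the members' median was -0.52.

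**Figure D4:**
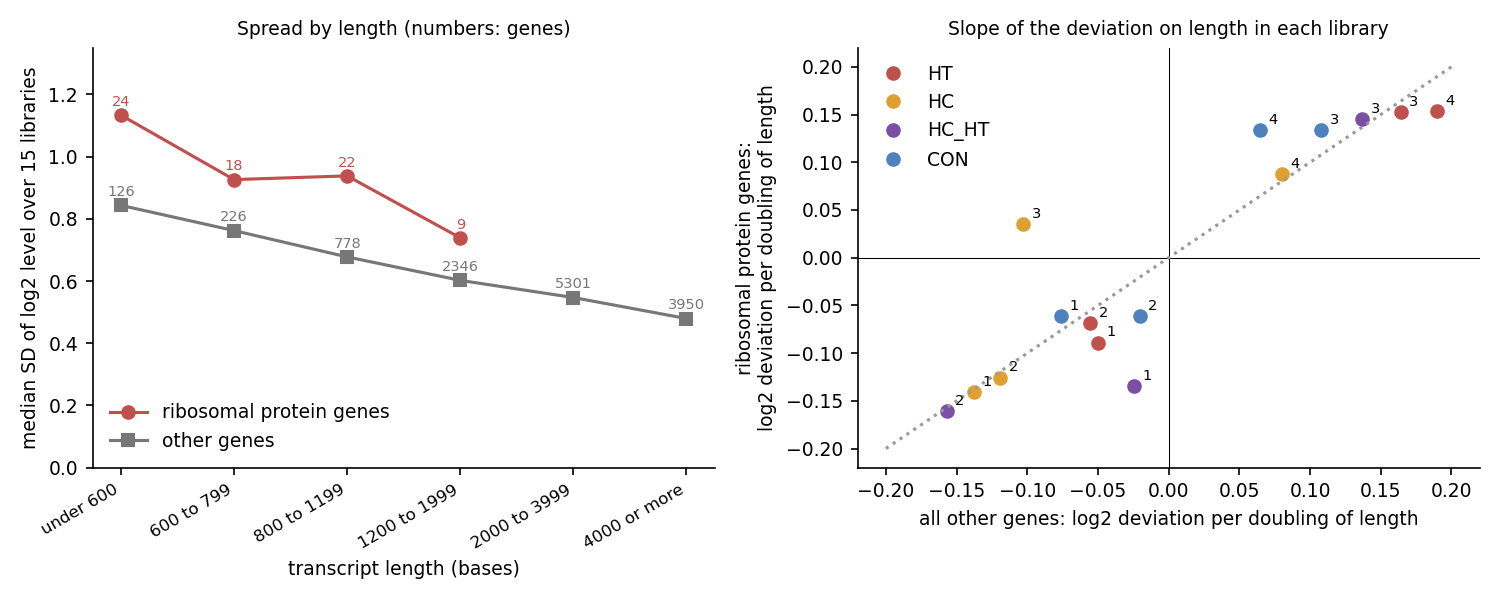
Left, median SD of the log2 level over 15 libraries against transcript length in bases, for ribosomal protein genes and other genes, with the number of genes beside each point. Ribosomal protein genes of 2000 to 3999 bases (3 genes) and of 4000 or more (1 gene) are not drawn. Right, slope of the log2 deviation on log2 length in each library, for ribosomal protein genes (vertical) against other genes (horizontal), colours by group and replicate number beside each point; HT replicates 3 and 4, HC replicate 4, HC_HT replicate 3 and CON replicates 3 and 4 lie in the upper right.

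Genes with related functions were examined in lists, some of which share genes. Other TOP genes and ribosomal paralogs had, of these lists, the medians nearest to the ribosomal proteins between HT and CON. Of all tested genes, 86.7% were negative in that comparison and 12.6% were lower at an unadjusted p under 0.05. Of the other TOP genes, 22 of 22 were negative and 15 at an unadjusted p under 0.05 (none called), with a median of -0.90. Among them, Pabpc1, the poly(A)-binding protein, differed by -0.94 ± 0.30 (adjusted p = 0.351), Tpt1, a growth-related protein, by -1.09 ± 0.43 (adjusted p = 0.360), and Npm1, the nucleolar chaperone, by -0.92 ± 0.34 (adjusted p = 0.359). The elongation factors Eef1a1 and Eef2 differed by -0.76 ± 0.36 and -0.70 ± 0.31. Eef1a1 had 1314, 712, 431 and 524 units in HT, 1515, 1526, 2183 and 1004 in HC, 1118, 1100 and 858 in HC_HT, and 1206, 1608, 1121 and 582 in CON. Ribosomal paralogs and fusion genes outside the name rule were negative in 9 of 9, with a median of -0.90, 3 at an unadjusted p under 0.05 and none called. Rpl22l1, a paralog that partly replaces Rpl22, had 28.7, 19.9, 3.72 and 10.5 units in HT, 58.9, 49.0, 39.4 and 11.0 in HC, 29.3, 28.9 and 10.6 in HC_HT, and 32.3, 46.3, 13.1 and 11.5 in CON. Rpl22 itself had 117, 64.4, 26.6 and 48.9 units in HT, 190, 166, 169 and 74.9 in HC, 148, 165 and 54.4 in HC_HT, and 158, 157, 78.9 and 45.1 in CON, so the pair shared their low libraries.

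The remaining lists had medians of -0.62 to -0.19 between HT and CON, beside -0.42 for all genes. Their counts stand beside 86.7% of all genes negative and 12.6% lower at an unadjusted p under 0.05. Translation factors had a median of -0.62 (39 of 40 negative, 15 at an unadjusted p under 0.05), ribosome biogenesis genes -0.59 (51 of 54, 16), mitochondrial ribosomal proteins -0.54 (70 of 73, 6), mTOR pathway genes -0.48 (27 of 31, 8), ribosome quality control genes -0.43 (11 of 12, 1) and p53 targets -0.19 (15 of 19, 2). None of these genes was called. On the median-of-ratios scale, the medians were -0.43 for the other TOP genes, -0.47 for the paralogs, -0.16 for translation factors, -0.15 for ribosome biogenesis, -0.10 for mitochondrial ribosomal proteins, -0.01 for the mTOR pathway, 0.03 for quality control and 0.26 for p53 targets, beside -0.52 for the ribosomal proteins. Named members of these lists included the nucleolar proteins Ncl (-0.61 ± 0.32) and Fbl (-0.42 ± 0.40), the kinase Mtor (-0.66 ± 0.31), Larp1 (-0.53 ± 0.30), the transcription factor Myc (-0.24 ± 0.36), the cell cycle inhibitor Cdkn1a (-0.04 ± 0.36) and Mdm2 (-0.36 ± 0.30). In HC against CON, the other TOP genes had a median of 0.02 and in HC_HT against CON one of -0.48.

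**Figure D5:**
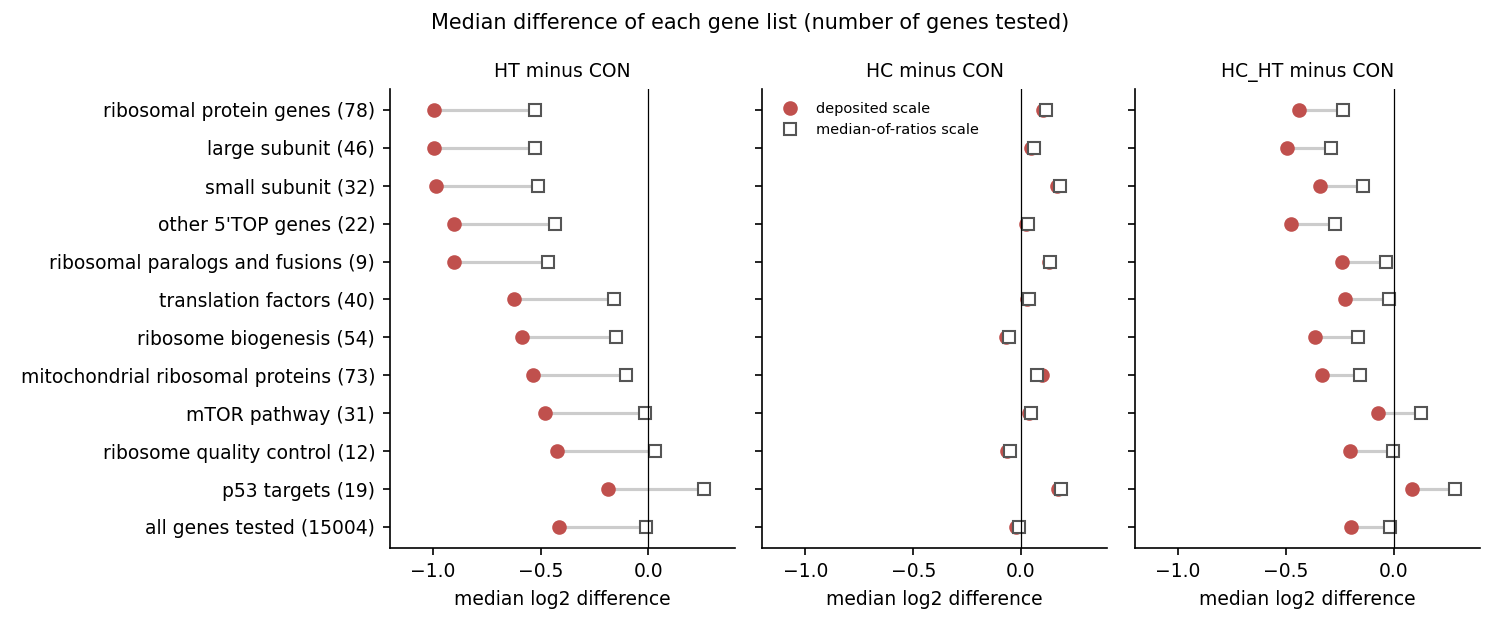
Median log2 difference of the functional gene lists in HT minus CON, HC minus CON and HC_HT minus CON, on the deposited scale (filled) and the median-of-ratios scale (open), with the number of genes tested beside each name. In HT minus CON the medians are -0.995 and -0.52 for ribosomal protein genes, -0.90 and -0.43 for other TOP genes and -0.42 and -0.01 for all genes; cell marker lists are not drawn.

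Sex was also a term of the fit: females minus males, 0 of 78 members were called, against 6 of 15004 genes, and the members' median was 0.63 against 0.02 for all genes. In HT, replicates 1 and 2 were female, and replicates 3 and 4, the lowest libraries in mean level, male. The only CON female, replicate 2, was the highest CON library. In HC and HC_HT the lowest libraries, replicates 4 and 3, were female. Within HT, sex cannot be told apart from the division into low and other libraries.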

How the data were processed

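Aortic valve RNA of 15 mice (16 planned) was analysed; 1 column with no name in its header was not used. Per the labels' protocols, RNA was extracted with Trizol and RNeasy and cDNA was amplified with Nugen Ovation from very small inputs. Per the submitters' processing notes, reads were handled with Bowtie 1.0.1, SAMtools 0.1.9, FastQC 0.11.2 and edgeR on mm10, and how counts were normalised is not stated in the labels. The authors deposited a score, normalised counts rounded to whole numbers, with totals of 10207928 to 10210305, so they do not show the depth of a library. Values were multiplied by 0.0979537.

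Replicates are separate mice per the labels. limma 3.58.1 (R 4.3.3) fitted log2(level + 1), a pseudocount of 1, over 15 libraries with group and sex, eBayes with trend and robust; 15004 of 20992 genes, those reaching 1 unit in 4 or more libraries, were tested, and p was adjusted over them. The pseudocount understates differences of low genes. On simulated data for HT against CON over 15004 genes, 16.4% of genes changed by 1 on the log2 scale were recovered. Of those changed by 2, 92.5% were, and 8 unchanged genes were called. The simulation drew noise separately for each gene and changed genes picked at random. It lacks the members' shared movement, so it does not give the recovery for the members. Python 3.11.15, numpy 2.4.6, pandas 2.3.3 and matplotlib 3.10.9 did the rest. Positions and lengths come from GENCODE M21, start regions from RefSeq. Lists are given by counts and medians, with no list test.

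The members, gene lists and named genes were chosen with earlier results of these data known. Named were members that passed, the 5 smallest p of each comparison, the 10 highest and 5 lowest levels, the 4 departing most each way from the members' mean, and a panel of known genes, with examples of the 18 genes under an unadjusted p of 0.05 and Rpl7 and Rpl29 added after their values were seen. Some members that the rule would name are not reported here by name. Alternatives covered scaling, pseudocount, filter, sex term, weights, block and left-out libraries.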

Additional observations from a re-analysis of the deposited data

Results flagged for a closer look

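Each gene's libraries were examined within the groups of 4 mice for a library far from the other 3 (Dixon's test at the 95% level, 237 groups). The 8 genes found all had HC replicate 4 below the other 3 HC libraries. Rpl10 had 387 units there (others 692 to 709), Rpl12 65.8 (200 to 211), Rpl15 101 (257 to 268) and Rpl27a 53.3 (168 to 177). Rpl31 had 230 units (463 to 502), Rpl7a 119 (274 to 291), Rps12 68.8 (197 to 219) and Rps18 57.0 (169 to 185). Chance flags about 1 in 20 groups, which is more than the number found, and the genes move together, so the 8 do not count as separate events. HC replicate 4 was also the lowest HC library in the sum.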

How the results depend on the processing

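The number of called members, 0 in all 8 comparisons, was above 0 in these alternatives. Beside each count stands the number of all genes called in either direction in the same fit. With a replicate block, 1 member was called in HC_HT against CON (222 genes), 1 in HC_HT against HT (138), 63 in the averaged HT difference (768) and 2 in the averaged HC difference (339). With array weights, 10 were called in HT against CON (412), 2 in HC_HT against CON (726) and 30 in the averaged HT difference (2089). With only the groups compared in the fit, 27 were called in HT against CON (208) and 1 in HC_HT against HT (221). Leaving out single libraries gave 0 to 13 called members in the averaged HT difference, 13 without HC replicate 4 (521). With the replicate block, members lower at an unadjusted p under 0.05 numbered 72 in HT against CON (15.8% of all genes), 28 in HC_HT against CON (11.7%), 59 in HC_HT against HC (8.74%) and 78 in the averaged HT difference (23.6%), and members higher 7 in HC_HT against HT (7.22%) and 12 in the averaged HC difference (7.92%). The causes were not tested. The numbers pair no mice by the labels. Over all tested genes, with group means taken off, same-numbered libraries of different groups correlated at -0.12 to 0.27 (21 pairs, 8 over 0.1). Their median was 0.07, and that of pairs with different numbers was -0.07. Of 15 libraries, 4 correlated best with a library of their own number. The numbers were not taken to pair mice, and whether same-numbered libraries share a source of variation was not tested. Leave-one-out medians ranged from -1.30 to -0.57 in HT against CON and -0.47 to 0.46 in HC against CON. They ranged from -0.96 to -0.03 in HC_HT against CON, -0.94 to -0.07 in HC_HT against HC, and 0.07 to 0.94 in HC_HT against HT. They ranged from -0.99 to -0.51 in the averaged HT difference, 0.02 to 0.57 in the averaged HC difference and 0.05 to 0.99 in the interaction. Leaving out the 3 least correlated libraries and removing the length trend were chosen after seeing the data. The fit on only the groups compared was not run for averaged differences and the interaction. Values carry no depth, so low levels have no detection limit here.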
